A study of Mus musculus with 3 samples.

Results

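The 35 genes described here belong to the integrated stress response that runs through the transcription factor ATF4, together with the serine, one-carbon and tRNA synthetase genes it is known to switch on. They were chosen by symbol, as 5 transcription factors, 5 stress effectors, 3 genes of serine synthesis, 5 of the one-carbon cycle, 3 of asparagine and proline synthesis, 3 amino acid transporters and 11 cytosolic tRNA synthetases. All 35 were found among the 17796 genes of the deposited table. Polyadenylated RNA was sequenced from spleen T cells of C57BL/6 mice that were stimulated for 3 days in dishes coated with antibodies to CD3 and CD28, with interleukin 2 added. The Old + Fumarate library came from mice aged 24 months that received fumarate, a metabolite of the Krebs cycle, at 10 mg/kg and 3 times a week for 2 months. The Old library came from mice of the same stated age on the same schedule of vehicle, and the Young library from mice aged 2 months, which are labelled vehicle without a stated course. Whether the age of 24 months is that at the start or the end of treatment is not stated. Each group had 1 library, and whether several mice were pooled is not stated, so the differences below come without p-values and compare single libraries.

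In this pathway, kinases that sense amino acid shortage, misfolded proteins, haem deficiency or viral RNA phosphorylate the initiation factor eIF2alpha. Translation then slows in general while that of Atf4 mRNA increases, so that ATF4 activity is set to a large part after transcription and Atf4 mRNA is an incomplete measure of it. ATF4 binds DNA as a dimer with C/EBP proteins and induces amino acid synthesis, amino acid uptake and the loading of tRNAs. In T cells, activation is known to induce serine synthesis and the mitochondrial one-carbon enzymes, which supply one-carbon units for nucleotides during proliferation.

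The element that ATF4 and C/EBP proteins bind together is shown first, as it is what several of these genes have in common in sequence. RefSeq promoter windows (build GRCm38.p6, 250 bases before to 50 after the start site) were matched for 30 of the 35 genes by symbol. The exact element TTGCATCA, or TGATGCAA when read on the other strand, lay in a window of 7 of these 30 genes (23.3%), against 279 of 27025 genes with a window (1.03%). The looser form TGATGNAA, or TTNCATCA on the other strand, includes every exact match and lay in windows of 10 of the 30 genes (33.3%), against 1219 of 27025 (4.51%). Exact matches of 6 of the 7 genes are printed 5′ to 3′ on the strand of the gene, with the element in capitals and the place of its first base counted from the start site of the window. The stretches of Chac1 and Pycr1 are longer because they lie before the start site and touch no annotated exon of the gene. As annotated, the gene Vldlr begins at 27216484 and Yars at 129189760, so their printed elements lie inside the gene.
Chac1, chr2:119350992-119351141, plus strand, element at −193: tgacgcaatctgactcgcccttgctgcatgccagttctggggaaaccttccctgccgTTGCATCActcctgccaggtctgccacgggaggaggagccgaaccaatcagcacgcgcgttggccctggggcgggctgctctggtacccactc
Pycr1, chr11:120643773-120643922, minus strand, element at −103: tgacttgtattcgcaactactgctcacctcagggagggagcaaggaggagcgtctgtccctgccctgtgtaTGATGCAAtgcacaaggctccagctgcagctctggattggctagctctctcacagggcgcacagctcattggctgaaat
Vldlr, chr19:27216809-27216838, plus strand, element at −200: agcagcaatagTTGCATCAgcgctcctagc
Iars, chr13:49682126-49682155, plus strand, element at 7: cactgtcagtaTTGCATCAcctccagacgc
Tars, chr15:11399655-11399684, minus strand, element at −15: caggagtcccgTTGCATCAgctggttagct
Yars, chr4:129189895-129189924, plus strand, element at 3: acgagctcagcTGATGCAAcccgacgggac

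Asns and Trib3, which with Gars matched the looser form alone, are shown with them because Asns is a textbook ATF4 target and Trib3 had the lowest ratio of the 35 genes in Old + Fumarate over Young.
Asns, chr6:7693214-7693243, minus strand, element at −23: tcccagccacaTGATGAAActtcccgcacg
Trib3, chr2:152344028-152344057, minus strand, element at 14: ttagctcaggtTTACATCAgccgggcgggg
These matches are descriptions of the windows alone.

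Levels are given in CPM, where the values of every library add up to 1000000. Depth was estimated at 13.9 M reads for Old + Fumarate, 17.3 M for Old and 41.0 M for Young. Differences are log2 ratios of CPM + 1, and a gene is called higher or lower past 1.5-fold, or 0.58 on the log2 scale. All 35 genes reached a mean of at least 1 CPM, and the lowest value, that of Chac1 in Old + Fumarate, rested on 39 estimated reads. The 95% counting intervals belong to the log2 ratio of plain CPM and cover counting error alone. All 14 T cell markers were present in each library, from 57.1 CPM upwards, and their median log2 ratio was 0.25 for Old + Fumarate over Old, −0.40 for Old over Young and −0.16 for Old + Fumarate over Young. Levels of genes listed as markers of other blood cells differed between the libraries as well. Whether that RNA came from such cells or from the T cells was not tested. The 11 erythroid and platelet markers summed to 174 CPM in Old + Fumarate, 1327 CPM in Old and 12.4 CPM in Young, and the 8 basophil and mast cell markers that the table lists to 79.8, 444 and 5.34 CPM in the same order of libraries. In Old, the platelet genes Pf4 and Itga2b gave 468 and 416 CPM of the first sum, and the erythroid gene Hbb-bs 43.4 CPM. The 7 listed macrophage and monocyte markers summed to 4.19, 29.1 and 2.81 CPM, and 3 of them were under 1 read in Old + Fumarate and 3 in Young. B cell markers summed to 19.3 CPM in Old + Fumarate, 17.8 CPM in Old and 7.12 CPM in Young. NK cell markers summed to 44.0, 58.4 and 2.34 CPM, of which Gzma alone gave 31.0, 30.2 and 0.537 CPM. Plasma cell markers, mostly Xbp1, summed to 132, 164 and 118 CPM, dendritic cell markers to 17.3, 19.3 and 7.83 CPM, and neutrophil markers to 0.722, 8.86 and 0.0488 CPM. Their part in the results below was not tested, and in such bulk libraries fewer cells of a type and less RNA per cell cannot be told apart.

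**Figure D1:**
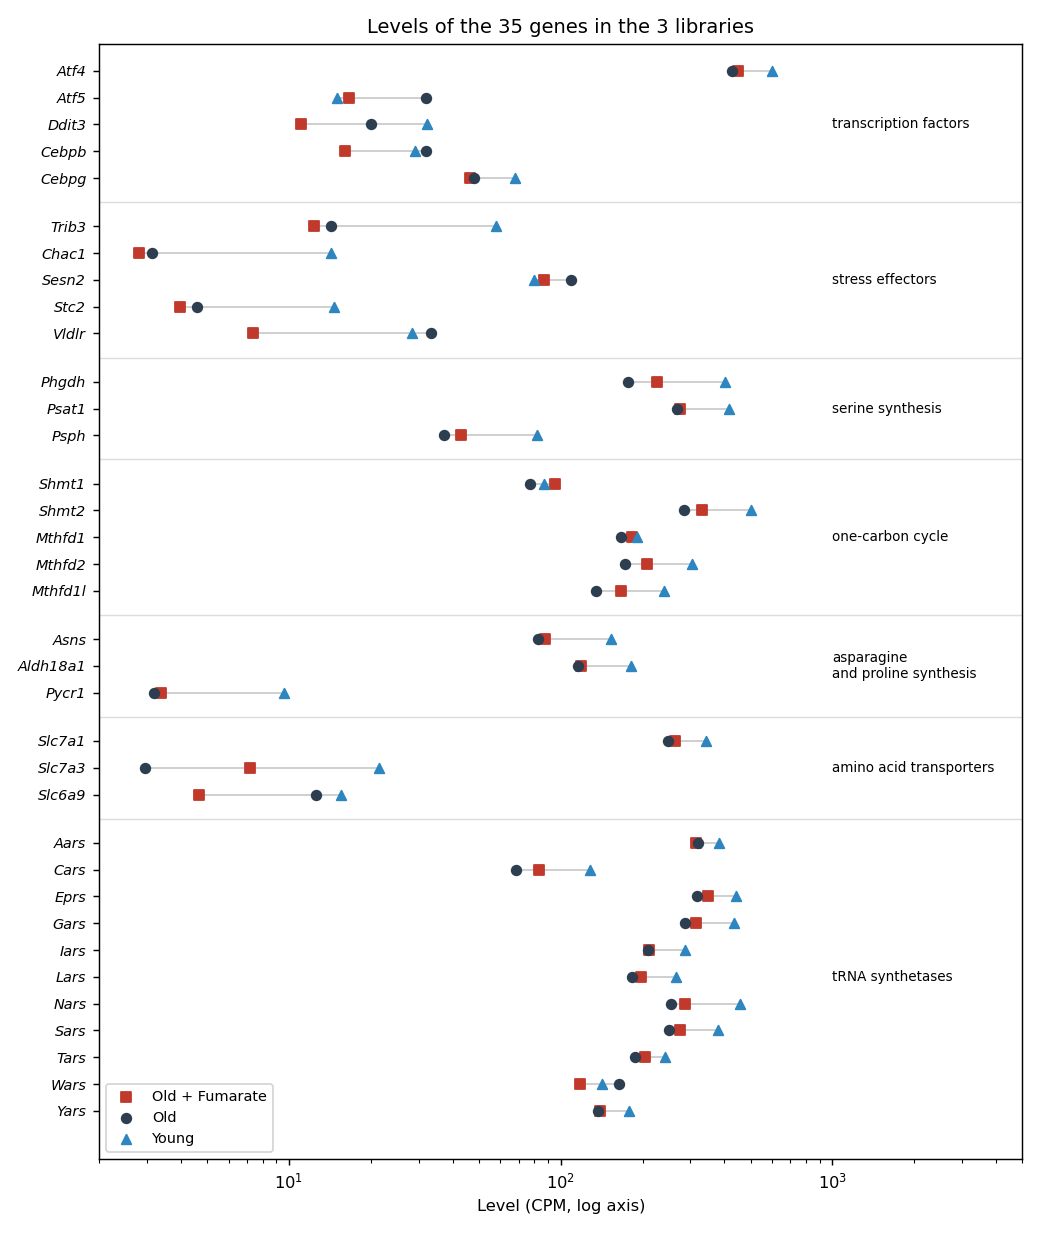
CPM (log axis) of each of the 35 genes in the Old + Fumarate (red squares), Old (dark circles) and Young (blue triangles) libraries, grouped by role, with 1 point per library. The Young point lies to the right for most serine, asparagine, proline and tRNA synthetase genes, and Atf5, Sesn2, Vldlr and Wars are among those where the Old point lies to the right.

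Set against the Young library, the Old library had lower levels of most of these genes. The lowest ratios were those of Slc7a3, Trib3 and Chac1. Of the 35 genes, 18 (51.4%) were at least 1.5-fold lower and 1 was at least 1.5-fold higher, where 6.73% of the 13750 genes with a mean of at least 1 CPM were lower and 16.5% higher. The median of the 35 genes was −0.59 and that of all genes 0.03. The median lies at the limit, so the count turns on small differences: Sars at −0.589 and Gars at −0.592 were just inside it, and Lars at −0.532 just outside. With a 2-fold limit 7 genes were lower, against 2.01% of all genes. When libraries were scaled to the geometric mean of the T cell markers, the median of all genes moved to 0.31. Then 9 of the 35 were lower and 2 higher, against 3.08% and 27.0% of all genes, and their median was −0.30. Of all genes past 1.5-fold, 71.1% were higher in Old with CPM and 89.7% with this scaling. The distance between the members' median and that of all genes was −0.62 with CPM and −0.60 with this scaling.

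The Old + Fumarate library also lay below the Young library, with 17 of the 35 genes (48.6%) at least 1.5-fold lower and 0 higher. The share of all genes was 6.79% lower and 10.5% higher. The median was −0.55, against 0.00479 for all genes, and 8 of the 35 were at least 2-fold lower, against 2.35% of all genes. Both of these comparisons use the same Young library, so they are not independent of each other. Between Old + Fumarate and Old, 5 genes (14.3%) were lower and 1 (2.86%) higher, near the 11.2% and 2.15% of all genes, and the median of the 35 was 0.07 against −0.02. At least 2-fold lower were 2 of the 35 (Vldlr and Slc6a9), against 6.57% of all genes. That median was −0.22 with libraries scaled to the sum of the T cell markers, under which the median of all genes was −0.31.

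**Figure D2:**
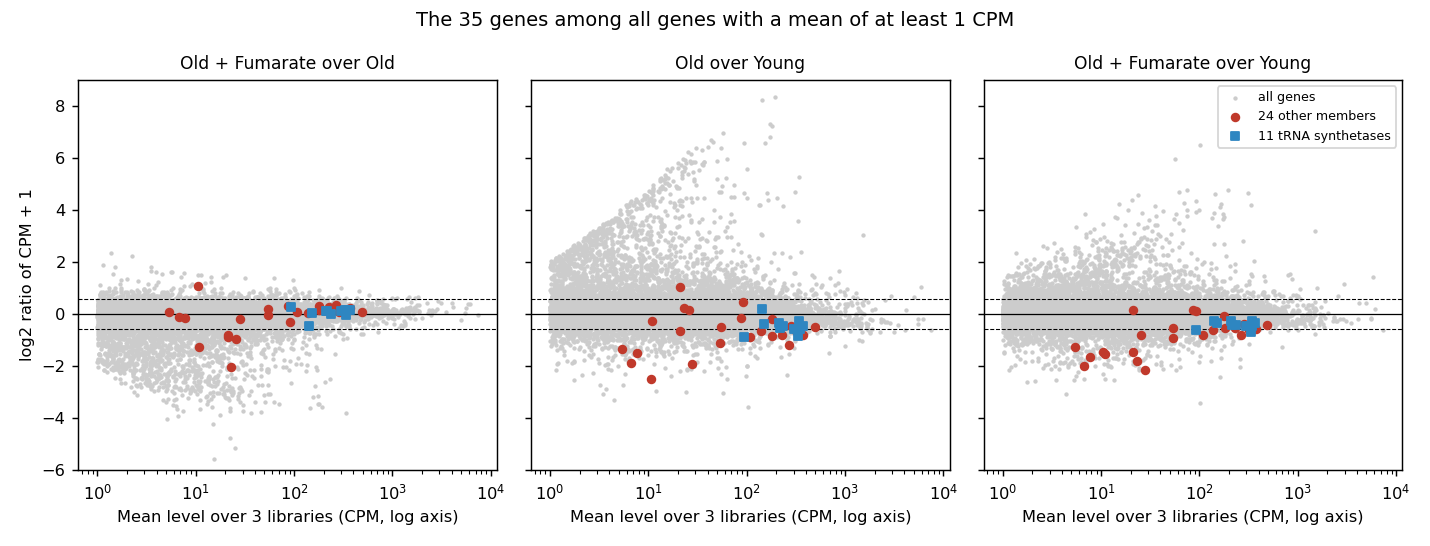
Log2 ratio of CPM + 1 against the mean CPM over the 3 libraries (log axis) for all genes with a mean of at least 1 CPM (grey), the 11 tRNA synthetases (blue squares) and the 24 other members (red circles), with dashed lines at 1.5-fold. Most members lie below 0 in both comparisons with Young, while in Old + Fumarate over Old all but 6 lie between the lines.

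Among the transcription factors, the mRNA of ATF4 itself lay within 1.5-fold in all 3 comparisons. Its known targets did not move together. For Old over Young, Trib3 (−1.94), Chac1 (−1.89) and Asns (−0.88) had lower log2 ratios than Atf4. Sesn2 (0.45) and Vldlr (0.22), also among the 35 genes, lay above 0. In that comparison 30 of the 35 genes lay below 0 and 5 above. Atf4 was at 447 CPM in Old + Fumarate and 428 CPM in Old, against 600.2 CPM in Young. Its log2 ratio was −0.49 for Old over Young (counting interval −0.52 to −0.45), −0.42 for Old + Fumarate over Young and 0.06 for Old + Fumarate over Old. Per kilobase of exon, Atf4 had the highest level of the 35 genes in all 3 libraries, at 189.7 CPM per kilobase in Old + Fumarate, 182 in Old and 255 in Young. Cebpg, which encodes a C/EBP protein that pairs with ATF4 on the element printed above, had a similar ratio of −0.50 for Old over Young. Cebpg was at 46.5 CPM in Old + Fumarate and 47.9 CPM in Old, against 68.2 CPM in Young.

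Of the 5 transcription factors, 3 were at least 1.5-fold lower in Old + Fumarate than in Old, namely Ddit3, Cebpb and Atf5. Over the 35 genes that share was 14.3%, near the 11.2% of all genes. Ddit3, which encodes CHOP, a factor of prolonged stress and cell death, was at 11.04 CPM in Old + Fumarate, 20.04 CPM in Old and 32.1 CPM in Young. Its log2 ratio was −0.80 for Old + Fumarate over Old (interval −1.14 to −0.58) and −1.46 for Old + Fumarate over Young. It was the 1 transcription factor at least 1.5-fold lower in Old than in Young, at −0.65 (interval −0.85 to −0.51). With a constant of 5 CPM, or scaled to the T cell markers by their sum or geometric mean, 0 of the 5 factors were. Cebpb, a C/EBP factor also active in macrophages and other myeloid cells, was at 16.1 CPM in Old + Fumarate and at 32.1 CPM in Old, with 29.1 CPM in Young. Its log2 ratio was −0.95 for Old + Fumarate over Old and −0.82 for Old + Fumarate over Young, and the interval for Old over Young, −0.01 to 0.29, included 0. Atf5, a relative of ATF4 with a known role in the mitochondrial stress response, was highest in Old. It was at 16.6 CPM in Old + Fumarate and 31.9 CPM in Old, against 15.0 CPM in Young, so that the log2 ratio was −0.90 for Old + Fumarate over Old and 1.04 for Old over Young. Atf5 overlaps Il4i1 on the opposite strand, and how the counting treated strand is not given. Il4i1 was at 5.08 CPM in Old + Fumarate, 19.8 CPM in Old and 1.24 CPM in Young, so its reads and those of Atf5 cannot be told apart where they overlap. Atf5 also overlaps Nup62 on the opposite strand, at 225 CPM in Old + Fumarate, 207 CPM in Old and 205 CPM in Young. Cebpb overlaps Tmem189 in the same way, at 85.3 CPM in Old + Fumarate, 95.7 CPM in Old and 82.8 CPM in Young, and Ddit3 overlaps Mars, which is not analysed here.

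Among the stress effectors, Trib3, Chac1 and Stc2 were low in both libraries from aged mice. Trib3, which encodes a pseudokinase that ATF4 and CHOP induce and that restrains ATF4 in turn, was at 12.3 CPM in Old + Fumarate and 14.3 CPM in Old, against 57.7 CPM in Young. Its log2 ratio was −2.14 for Old + Fumarate over Young (interval −2.46 to −2.00) and −1.94 for Old over Young (interval −2.21 to −1.82). Chac1, an enzyme that degrades glutathione, was at 2.82 CPM in Old + Fumarate and 3.13 CPM in Old, against 14.2 CPM in Young, with log2 ratios of −2.00 and −1.89 over Young. Stc2, a secreted glycoprotein induced by cell stress, was at 3.97 CPM in Old + Fumarate and 4.58 CPM in Old, against 14.7 CPM in Young. For all 3 genes the interval for Old + Fumarate over Old included 0, reaching from −0.50 to 0.07 for Trib3, −0.78 to 0.47 for Chac1 and −0.73 to 0.31 for Stc2.

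The other stress effectors, Sesn2 and Vldlr, were highest in the Old library. The median of the 5 effectors for Old over Young was −1.49, but 0.22 over the 3 that reach a mean of 10 CPM, which leaves out Chac1 and Stc2. Sesn2, a leucine-binding protein that restrains the growth kinase complex mTORC1, was at 86.9 CPM in Old + Fumarate, 109 CPM in Old and 79.6 CPM in Young, within 1.5-fold in each comparison. Vldlr, a lipoprotein receptor that the ATF4 pathway induces, was at 7.36 CPM in Old + Fumarate and 33.2 CPM in Old, with 28.4 CPM in Young. Its log2 ratio of −2.03 (interval −2.49 to −1.87) was the lowest of the 35 genes for Old + Fumarate over Old, and that over Young was −1.81. For Old over Young the log2 ratio of Vldlr was 0.22, unlike those of Chac1 and Pycr1, whose promoter windows also hold the exact element.

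In serine synthesis every gene was at least 1.5-fold lower than Young in both libraries from aged mice. Phgdh, the enzyme that opens the pathway from the glycolytic intermediate 3-phosphoglycerate, was at 226 CPM in Old + Fumarate and 176 CPM in Old, against 401 CPM in Young. Psat1, the transaminase of the next step, was at 274 CPM in Old + Fumarate and 267 CPM in Old, against 417 CPM in Young. Psph, the phosphatase that releases serine, was at 43.0 CPM in Old + Fumarate and 37.3 CPM in Old, against 81.8 CPM in Young. The log2 ratios for Old over Young were −1.18 for Phgdh (interval −1.24 to −1.13), −0.64 for Psat1 and −1.11 for Psph. Those for Old + Fumarate over Young were −0.83, −0.60 and −0.91 for the same genes. Phgdh was the serine gene with the largest ratio for Old + Fumarate over Old, at 0.36 (interval 0.29 to 0.43), within 1.5-fold. Psat1 was within 1.5-fold for Old over Young with scaling to the T cell markers, at −0.48 by their sum and −0.35 by their geometric mean, and for Old + Fumarate over Young by their geometric mean, at −0.53. Psph overlaps Cct6a on the opposite strand, which was at 536 CPM in Old + Fumarate, 497 CPM in Old and 565 CPM in Young. Scaled to the sum of the T cell markers, the median of the 3 serine genes for Old + Fumarate over Old was −0.09 in place of 0.20.

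In the one-carbon cycle the mitochondrial enzymes were lower in Old than in Young and the cytosolic ones were nearly level. Shmt2, the mitochondrial enzyme that takes a carbon from serine, was at 332 CPM in Old + Fumarate and 285 CPM in Old, against 500.3 CPM in Young. Mthfd2, the next mitochondrial enzyme, was at 208 CPM in Old + Fumarate and 172 CPM in Old, against 304 CPM in Young. Mthfd1l, which releases formate from the mitochondrion, was at 166 CPM in Old + Fumarate and 135 CPM in Old, against 240.5 CPM in Young. The log2 ratios of these 3 genes for Old over Young lay close together, at −0.81, −0.82 and −0.83. The cytosolic counterparts were Shmt1, at 95.5 CPM in Old + Fumarate, 77.1 CPM in Old and 87.0 CPM in Young, and Mthfd1, at 183, 166 and 191 CPM in the same libraries. Their log2 ratios for Old over Young were −0.17 and −0.20. Shmt1 overlaps Smcr8 on the opposite strand, at 58.5 CPM in Old + Fumarate, 70.0 CPM in Old and 55.3 CPM in Young. For Old + Fumarate over Young, Shmt2 at −0.59 was past the limit and Mthfd2 at −0.55 and Mthfd1l at −0.53 were within it. Scaled to the sum of the T cell markers, 3 of the 5 genes were at least 1.5-fold lower for both Old + Fumarate and Old over Young. Scaled to their geometric mean, 0 of the 5 were in either. The shares of all genes lower were 10.1% and 4.41% with the sum, and 5.54% and 3.08% with the geometric mean.

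All 5 one-carbon genes had counting intervals above 0 for Old + Fumarate over Old, with log2 ratios from 0.14 for Mthfd1 to 0.31 for Shmt1, none past 1.5-fold. The T cell markers had a median of 0.25 in the same pair of libraries. Scaled to their sum, the median of the 5 genes was −0.03 in place of 0.27.

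The genes of asparagine and proline synthesis, too, were all at least 1.5-fold lower than Young in both libraries from aged mice. Asns, asparagine synthetase, was at 87.3 CPM in Old + Fumarate and 82.7 CPM in Old, against 153 CPM in Young. Its log2 ratio was −0.80 for Old + Fumarate over Young and −0.88 for Old over Young (interval −0.98 to −0.81). Aldh18a1, which begins proline synthesis from glutamate, was at 119 CPM in Old + Fumarate and 115 CPM in Old, against 181 CPM in Young. Scaled to the T cell markers, Aldh18a1 was within 1.5-fold for Old over Young, at −0.49 by their sum and −0.36 by their geometric mean, and for Old + Fumarate over Young by their geometric mean, at −0.54. Pycr1, the mitochondrial enzyme that completes it, had few reads, at 3.39 CPM in Old + Fumarate and 3.19 CPM in Old, against 9.59 CPM in Young. Its log2 ratio was −1.34 for Old over Young, with a wide interval of −2.02 to −1.18. The interval of each of these 3 genes for Old + Fumarate over Old included 0.

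The transporters differed among themselves. Slc7a1, the main carrier of arginine and lysine in many cells, was at 263 CPM in Old + Fumarate and 249 CPM in Old, against 342 CPM in Young, within 1.5-fold in each comparison. Slc7a3, a carrier of the same amino acids, was at 7.22 CPM in Old + Fumarate and 2.95 CPM in Old, against 21.4 CPM in Young. Slc7a3 had the lowest log2 ratio of the 35 genes for Old over Young, at −2.50 (interval −3.30 to −2.45), and was the 1 member at least 1.5-fold higher in Old + Fumarate than in Old, at 1.06 (interval 0.79 to 1.80). These values rest on 100 estimated reads in Old + Fumarate and 51 in Old. Slc6a9, a glycine carrier, was lower in that comparison. It was at 4.69 CPM in Old + Fumarate and 12.6 CPM in Old, with 15.5 CPM in Young, a log2 ratio of −1.26 over Old (interval −1.84 to −1.02) and −1.54 over Young. Slc6a9 overlaps B4galt2 on the opposite strand, at 8.89 CPM in Old + Fumarate, 7.69 CPM in Old and 3.33 CPM in Young.

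**Figure D3:**
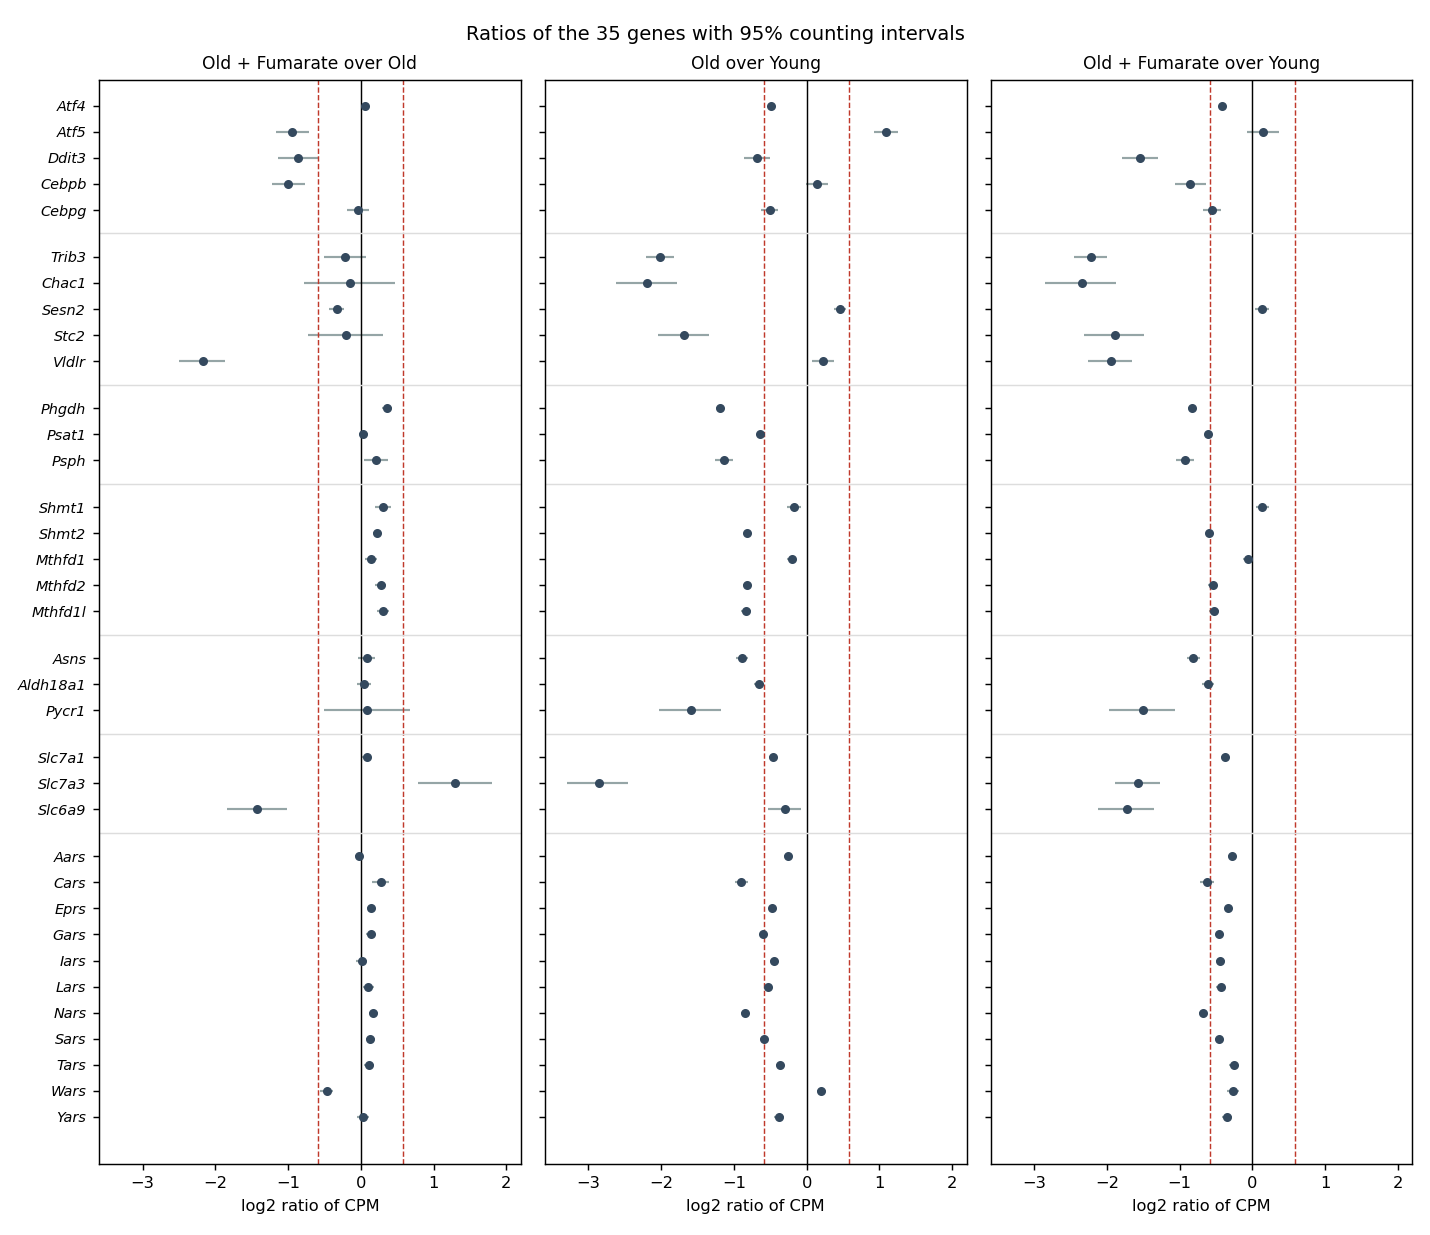
Log2 ratio of CPM for each of the 35 genes in the 3 comparisons, with 95% counting intervals as bars, a solid line at 0 and dashed lines at 1.5-fold. For Old + Fumarate over Old, Vldlr, Slc6a9, Cebpb, Atf5 and Ddit3 lie left of the dashed line and Slc7a3 right of it.

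The 11 tRNA synthetases, which charge tRNAs with their amino acids, were lower in Old than in Young with the exception of Wars. Their summed level was 2493 CPM in Old + Fumarate and 2380 CPM in Old, against 3334 CPM in Young. For Old over Young 4 of the 11 were at least 1.5-fold lower, with a median of −0.47, against 6.73% of all genes lower. For Old + Fumarate over Young 2 were lower, with a median of −0.43, against 6.79% of all genes. The 4 lower in Old than in Young were Cars, Nars, Gars and Sars, which charge cysteine, asparagine, glycine and serine. Nars was at 286 CPM in Old + Fumarate and 254 CPM in Old, against 457 CPM in Young, with a log2 ratio of −0.85 for Old over Young (interval −0.90 to −0.80). Cars was at 82.9 CPM in Old + Fumarate and 68.6 CPM in Old, against 128 CPM in Young, with a log2 ratio of −0.89. Gars was at 316 CPM in Old + Fumarate and 287 CPM in Old, against 434 CPM in Young. Sars was at 274 CPM in Old + Fumarate and 251 CPM in Old, against 378 CPM in Young. With scaling to the geometric mean of the T cell markers, 1 of the 11 was at least 1.5-fold lower in Old than in Young. The share of all genes was 3.08%, and the median of the 11 was −0.18.

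Of the 7 synthetases within 1.5-fold in Old over Young, 6 had ratios from −0.53 for Lars to −0.26 for Aars. Aars, for alanine, was at 315 CPM in Old + Fumarate and 319.7 CPM in Old, against 383 CPM in Young, and Eprs, the joint enzyme for glutamate and proline, at 349.8, 317 and 440.1 CPM in the same libraries. Iars, for isoleucine, was at 211 CPM in Old + Fumarate, 209 CPM in Old and 286 CPM in Young. Tars, for threonine, was at 203 CPM in Old + Fumarate, 188 CPM in Old and 243 CPM in Young. The 4 synthetases with the exact element in a promoter window, Aars, Iars, Tars and Yars, were among these 6. Yars, for tyrosine, was at 139.8 CPM in Old + Fumarate, 137 CPM in Old and 178 CPM in Young, and Lars, for leucine, at 197, 184 and 266 CPM.

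Wars, the tryptophan enzyme and a gene known to be induced by interferon gamma, was the exception. It was at 118 CPM in Old + Fumarate and 164 CPM in Old, with 142 CPM in Young. Its log2 ratio of 0.20 for Old over Young (interval 0.14 to 0.27) was the only one of the 11 above 0. For Old + Fumarate over Old, Wars had a log2 ratio of −0.47 (interval −0.56 to −0.38), within 1.5-fold, while the other 10 lay between −0.02 and 0.27. Scaled to the T cell markers by their sum or geometric mean, 1 of the 11 synthetases was at least 1.5-fold lower in that comparison. The shares of all genes lower were 19.6% with the sum and 16.4% with the geometric mean.

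Cytosolic synthetases and complex proteins outside the 35 were listed for 11 of 12 named genes and lay within 1.5-fold in all 3 comparisons. Their medians were 0.07 for Old + Fumarate over Old, −0.24 for Old over Young and −0.09 for Old + Fumarate over Young. Farsb, a subunit of the phenylalanine enzyme, had the lowest of these ratios for Old over Young, at 102 CPM in Old + Fumarate and 93.7 CPM in Old, against 129 CPM in Young. Dars, for aspartate, was at 136 CPM in Old + Fumarate and 131 CPM in Old, against 178 CPM in Young. Vars, for valine, was at 355 CPM in both Old + Fumarate and Old, against 451 CPM in Young, and Aimp2, a scaffold of the multi-synthetase complex, at 64.2, 53.2 and 71.4 CPM.

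Of 18 listed eIF2alpha kinases, phosphatase subunits and partners, 2 were at least 1.5-fold higher and 0 lower in Old over Young, with a median of −0.01, where 16.5% of all genes were higher and 6.73% lower. Eif2ak4, the kinase GCN2 that senses uncharged tRNA, was at 24.9 CPM in Old + Fumarate, 25.8 CPM in Old and 29.1 CPM in Young. Eif2ak3, the kinase PERK of the endoplasmic reticulum, was at 60.3 CPM in Old + Fumarate, 55.5 CPM in Old and 48.6 CPM in Young, and Eif2ak1, the haem-regulated kinase, at 68.7, 79.0 and 65.8 CPM. Eif2ak2, the kinase PKR that binds double-stranded RNA and is induced by interferon, was at 36.1 CPM in Old + Fumarate and 44.4 CPM in Old, against 59.6 CPM in Young, and its log2 ratio of −0.71 for Old + Fumarate over Young was past the limit. The 2 higher genes were Impact, known as an inhibitor of GCN2 activation, and Ppp1r15a. Impact was at 32.3 CPM in Old + Fumarate and 36.4 CPM in Old, against 15.2 CPM in Young, with log2 ratios of 1.04 and 1.21 over Young. Ppp1r15a, the stress-induced subunit that directs a phosphatase to eIF2alpha, was at 61.5 CPM in Old + Fumarate and 110.1 CPM in Old, with 67.8 CPM in Young. Oma1, a mitochondrial protease that relays mitochondrial stress to this pathway, was at 19.0 CPM in Old + Fumarate, 15.0 CPM in Old and 20.8 CPM in Young, within 1.5-fold in each comparison.

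Other genes known as ATF4 targets went in both directions. Of 22 with a mean of at least 1 CPM, 7 were at least 1.5-fold lower and 3 higher in Old over Young (median −0.33). The shares of all genes were 6.73% lower and 16.5% higher. In Old + Fumarate over Young 6 were lower and 1 higher (median −0.36), against 6.79% and 10.5% of all genes. Neither count of higher genes lay above the share of all genes. Cth, which makes cysteine from cystathionine, was at 18.8 CPM in Old + Fumarate and 15.6 CPM in Old, against 74.6 CPM in Young, with log2 ratios of −1.93 and −2.18 over Young. Gpt2, the mitochondrial alanine transaminase, was at 11.5 CPM in Old + Fumarate and 8.63 CPM in Old, against 42.7 CPM in Young. Slc7a11, the cystine importer, which NRF2 is also known to induce, was instead at 3.72 CPM in Old + Fumarate and 22.9 CPM in Old, with 5.24 CPM in Young. Nupr1, a stress-induced chromatin protein, was at 1.44 CPM in Old + Fumarate and 5.21 CPM in Old, against 6.95 CPM in Young.

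Beyond the 5 one-carbon members, the remaining folate and glycine genes had a median of 0.02 for Old over Young, with 6 of 25 at least 1.5-fold higher and 1 lower. These counts are near the shares of all genes, 16.5% higher and 6.73% lower. The lower one was Aldh1l2, the mitochondrial enzyme that oxidises formyl-tetrahydrofolate, at 1.60 CPM in Old + Fumarate and 1.22 CPM in Old, against 8.71 CPM in Young. Its cytosolic relative Aldh1l1 was at 2.02 CPM in Old + Fumarate and 13.9 CPM in Old, with 2.37 CPM in Young. Gldc, a subunit of the glycine cleavage system, was at 2.60 CPM in Old + Fumarate and 3.88 CPM in Old, against 1.02 CPM in Young. Sdsl, a serine dehydratase-like gene, was at 0.577 CPM in Old + Fumarate and 6.37 CPM in Old and was listed at 0 in Young. The markers of erythroid, platelet, basophil and mast cells were highest in Old too, and their part in these values was not tested.

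**Figure D4:**
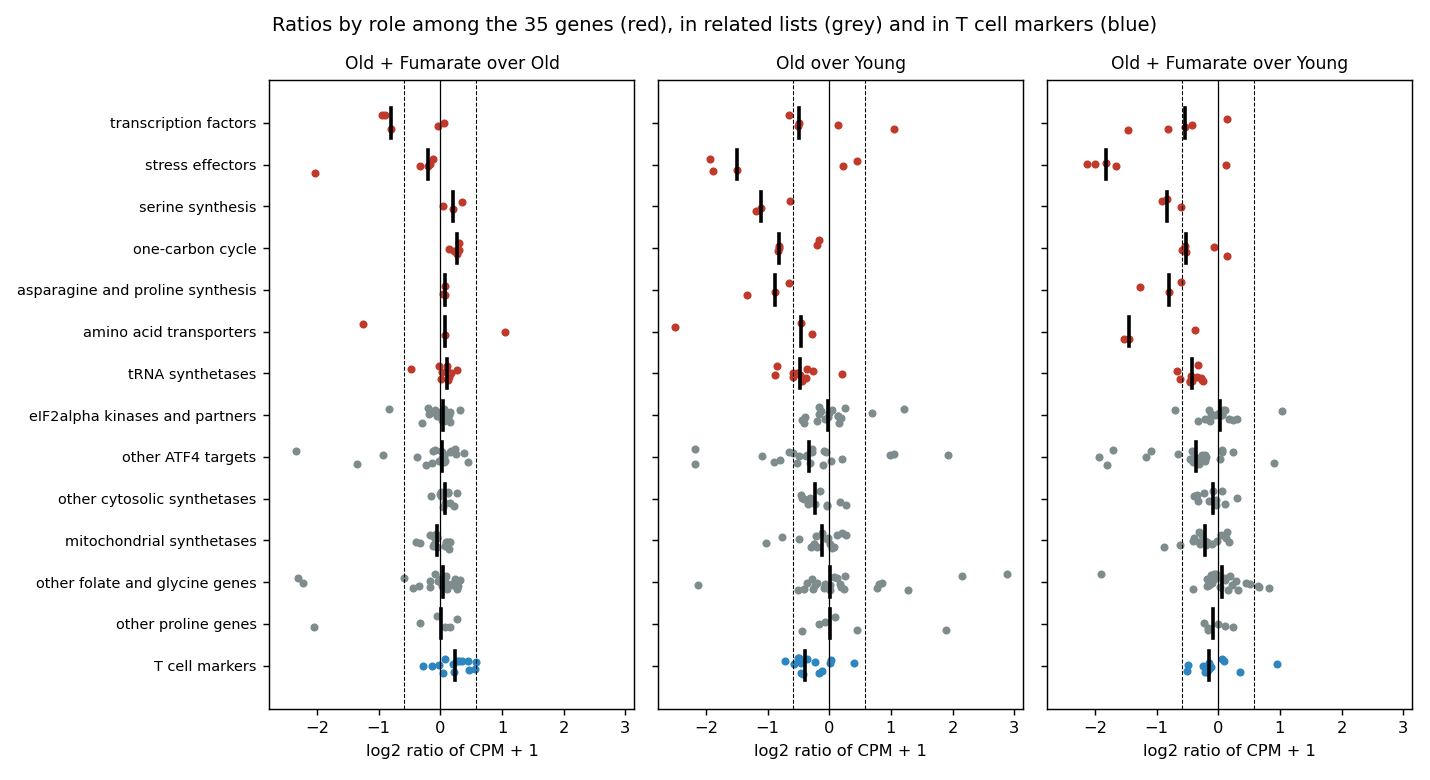
Log2 ratio of CPM + 1 for each gene with a mean of at least 1 CPM, by role among the 35 genes (red), in 6 related lists (grey) and in the T cell markers (blue), with black bars at the medians and dashed lines at 1.5-fold. For Old over Young the serine genes have a median of −1.11 and the eIF2alpha list one of −0.01, while the median of the 5 stress effectors, −1.49, becomes 0.22 over the 3 with a mean of at least 10 CPM.

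Of the 35 genes, 5 (14.3%) were at least 1.5-fold lower in Old + Fumarate than in Old, near the 11.2% of all genes. These 5, namely Vldlr, Slc6a9, Cebpb, Atf5 and Ddit3, stood beside large differences in the markers of other blood cells. In that comparison all 10 erythroid and platelet markers with a mean of at least 1 CPM were at least 2-fold lower (median −2.84). So were all 8 listed basophil and mast cell markers (median −2.36), against 6.57% of all genes. Some of these markers reach that mean only through Old, so their being lower than Old is partly set by the minimum. An example is Klf1, at 0.65 CPM in Old + Fumarate, 6.08 CPM in Old and 0.34 CPM in Young. Pf4, platelet factor 4, was at 51.3 CPM in Old + Fumarate and 468 CPM in Old, and Gata2, a factor of blood progenitors and mast cells, at 16.2 CPM and 113 CPM. For Old over Young, where the same minimum applies, the erythroid and platelet markers had a median of 5.04 and the basophil and mast cell markers 5.45. The 5 genes there had log2 ratios of 1.04 (Atf5), 0.22 (Vldlr), 0.14 (Cebpb), −0.28 (Slc6a9) and −0.65 (Ddit3). The part of other cells in these 5 genes was not tested.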

How the data were processed

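T cell RNA was sequenced in 3 groups of 1 library each, named by their titles. The submitters' processing notes list STAR, Partek and the build mm10. Versions, the counting step and its strand setting were not given in the sources used here. Under a name that says raw counts, the authors deposited CPM, reads scaled before deposit so that each column sums to 1000000. Reads were estimated by dividing each value by the step between low values. Within 0.02 reads, 57.9% to 68.1% of genes came out whole, so no count model was fitted. The 95% Clopper-Pearson intervals on estimated reads cover counting error alone, as reads are not independent molecules. No gene in the table has under 10 estimated reads summed over the libraries. The limit for a value of 0 is 3 reads, or 0.217 CPM in Old + Fumarate, 0.174 CPM in Old and 0.0732 CPM in Young.

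Log2 ratios used a constant of 1 CPM. Lists were counted over genes with a mean of at least 1 CPM. The 35 genes, 6 related lists and 9 marker lists were chosen with earlier results of these data known. All 35 genes are accounted for. From each related list up to 4 genes with the largest ratios are named, beside Eif2ak1, Eif2ak2, Eif2ak3 and Eif2ak4. A few items under these rules are not reported here. All 35 positions equal those of GENCODE M21, the source of exon lengths. Alternatives were other constants, minimums, scalings and totals and a 2-fold limit. Scaling to the geometric mean of the T cell markers and a total of protein-coding genes were chosen after seeing the data. Software was matplotlib 3.10.9, scipy 1.17.1, pandas 2.3.3 and numpy 2.4.6 under Python 3.11.15.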

Additional observations from a re-analysis of the deposited data

How the results depend on the processing

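No paired analysis was possible because each group has 1 library, and for the same reason no library could be left out. Of 1041 log2 ratios of single members recomputed under other settings, 862 stayed within their counting interval's half-width of the value reported. No ratio past 1.5-fold changed sign. A change of minimum cannot alter a single ratio, so the ratios under those settings stayed by construction. Most ratios that moved did so under scaling to the T cell markers. For Old + Fumarate over Old 27 of the 35 moved by their sum and 25 by their geometric mean. For Old over Young the counts were 27 and 31, and for Old + Fumarate over Young 25 and 16. Scaled to the sum of the T cell markers, the median of the 35 genes was −0.22 for Old + Fumarate over Old, −0.43 for Old over Young and −0.69 for Old + Fumarate over Young, and 2 genes were higher in Old than in Young. Scaled to their geometric mean, the median was −0.14 for Old + Fumarate over Old and −0.30 for Old over Young, where 9 genes were lower and 2 higher. In Old over Young, 21.0% of all genes were higher with the sum. With the geometric mean 3.08% of all genes were lower and 27.0% higher. The share of called genes that were higher was 16.1% for Old + Fumarate over Old, 71.1% for Old over Young and 60.7% for Old + Fumarate over Young with CPM, and 3.27%, 82.6% and 45.2% with the sum. Trimmed mean of M values and median-of-ratios scaling gave 19 and 18 genes lower in Old than in Young, against 7.9% and 7.72% of all genes. With a 2-fold limit, 2 genes were lower for Old + Fumarate over Old, 7 for Old over Young and 8 for Old + Fumarate over Young. With a minimum of 10 CPM, which leaves 32 of the 35 genes, the median for Old over Young was −0.52. A constant of 5 CPM gave Slc7a3 0.62, Vldlr −1.63 and Slc6a9 −0.86 for Old + Fumarate over Old. Depth limits Chac1, Pycr1, Stc2 and Slc7a3 most, and with 1 library a group the spread between mice is unknown.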

Other observations

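The mitochondrial tRNA synthetases with genes of their own had a median log2 ratio of −0.06 for Old + Fumarate over Old. Their median was −0.12 for Old over Young and −0.21 for Old + Fumarate over Young. Of the 17 genes 2 were at least 1.5-fold lower and 0 higher in Old over Young, against 6.73% and 16.5% of all genes. Lars2, for leucine, was at 103 CPM in Old + Fumarate and 93.2 CPM in Old, against 191 CPM in Young, with log2 ratios of −0.88 and −1.03 over Young. Nars2 and Wars2 lay within 1.5-fold in each comparison, with Nars2 at 11.5, 10.7 and 15.5 CPM and Wars2 at 8.08, 10.9 and 11.1 CPM in Old + Fumarate, Old and Young.

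Proline genes outside the 35 had medians of 0.01 for both Old + Fumarate over Old and Old over Young. Of the 6, 1 was at least 1.5-fold lower in the first and 1 higher in the second. The shares of all genes were 11.2% lower in the first and 16.5% higher in the second. The gene past the limit in both was Prodh, which begins proline breakdown. Prodh was at 2.38 CPM in Old + Fumarate and 13.0 CPM in Old, with 2.78 CPM in Young. Aldh4a1, the enzyme of the next step of breakdown, was at 19.8 CPM in Old + Fumarate, 25.3 CPM in Old and 18.3 CPM in Young. P4ha1, a subunit of a prolyl hydroxylase, was at 107 CPM in Old + Fumarate, 88.1 CPM in Old and 120.5 CPM in Young.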
